A study of Homo sapiens with 24 samples.

Results

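The effect of GSK-J4 in the MYCN-amplified neuroblastoma lines LAN5 and IMR5 was set against its effect in SK-N-FI, a line labelled MYCN wildtype. The members were the genes with a mean normalised read count of at least 100 in the tables of these 3 lines, matched by Ensembl identifier, which gave 9215 genes of the 39772 listed in any table of the series (25559 were listed in all 3). The quantity described for each gene is a difference of effects: the mean of the log2 fold changes of LAN5 and IMR5 minus the log2 fold change of SK-N-FI. A positive difference therefore means a higher response in the amplified lines and not a higher level, and a gene can reach it by rising in those lines, by falling in SK-N-FI, or by both.

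GSK-J4 is a cell-permeable inhibitor of KDM6A (UTX) and KDM6B (JMJD3), the demethylases that remove the repressive methyl marks of H3K27. The study treated 4 established neuroblastoma lines. LAN5, IMR5 and SK-N-FI, the lines compared, are labelled sensitive to the compound, and each was left untreated or was given 1 µM GSK-J4 for 72 hours, with 3 libraries of polyadenylated RNA per group, so the comparison rests on 18 of the 24 libraries. All 3 lines are long-established tumour cultures, and each MYCN status and genotype is represented here by very few of them: 2 amplified lines and 1 wild-type line. MYCN status and any other property of SK-N-FI therefore cannot be told apart in this comparison.

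MYCN and MYC are basic helix-loop-helix factors that bind DNA with MAX, prefer the E-box, and are best known for driving ribosome production, nucleotide synthesis and growth. MYCN amplification marks aggressive neuroblastoma, and non-amplified tumours and lines often rely on MYC instead. Damaged or stressed cells can switch on genes that halt the cell cycle and repair DNA, and others that lead to death. Hypoxia-inducible factors (HIF) are marked for destruction by oxygen-dependent prolyl hydroxylases and, when stable, raise glucose transport and glycolysis, while ATF4 and CHOP carry out the transcription of the integrated stress response.

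Each line is represented by a single table of treated against untreated cells. Values of individual libraries were not used, so replicate values, SDs and the depth of each library cannot be given, and the standard error (SE) stands for the precision. Summed over all listed genes, the normalised means of the authors' deposited tables came to 16089613 for SK-N-FI, 15458940 for LAN5 and 19445359 for IMR5. The tables do not state the direction of the fold change. Positive values were taken to mean higher with GSK-J4, since BBC3, whose induction by the compound the study is known for, is positive in all 3, so the sign of BBC3 is not a finding. The SK-N-FI table was identified by a short name that resembles the line's and by elimination. As normalised counts per 1000000 of a table's sum, MYCN stood at 1579 in LAN5 and 586 in IMR5, against 7.24 in SK-N-FI, and its amplicon neighbour DDX1, an RNA helicase, at 7184, 9717 and 202, which matched the labels. MYC, which lay below the minimum mean, had its highest level in SK-N-FI (17.1, against 1.31 in LAN5 and 0.380 in IMR5). These levels compare tables that were normalised separately. Of 12 neuroblastoma markers, 12 in LAN5 and 10 in IMR5 reached a mean of 100, as did 11 in SK-N-FI, and TH, the rate-limiting enzyme of catecholamine synthesis, was listed for LAN5 only. Of the markers of other cells, Schwann and glial markers summed to between 3.54 and 13.8 on that scale, and immune and endothelial markers to between 0.176 and 9.74. Fibroblast and muscle markers summed to between 95.9 and 184, against 1871 to 3974 for the neuroblastoma markers, and of these 10 LAN5 had 4 at a mean of 100 or more, IMR5 had 5 and SK-N-FI had 3. PDGFRA (92.5) and COL1A1 (56.8) in IMR5 stood above the neuroblastoma markers CHGB (26.3) and DBH (7.40) there, and DCN stood at 99.5 in SK-N-FI; their part in the results was not tested. The glial factor SOX10 and the T-cell gene CD3E were listed in none of the 3 tables.

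The difference was tested with a two-sided Wald test from each line's fold change and SE, after the statistical prior that pulls fold changes toward 0 had been removed, with Benjamini-Hochberg adjustment over all 9215 genes. Effects and differences given with an SE are these prior-removed values on the log2 scale. Fold changes in bulk RNA average over the culture, so fewer cells with an mRNA and less of it per cell cannot be told apart. The difference was higher in the amplified lines for 1761 genes (19.1% of those tested) and lower for 2602 (28.2%). With each line centred on its own median change, those counts became 2223 and 2087, so the excess of lower genes depends on the scaling; the median difference over all genes was -0.08. Because the mean of LAN5 and IMR5 can be set by 1 line, genes were also called where LAN5 minus SK-N-FI and IMR5 minus SK-N-FI both passed with 1 sign: 865 were higher in both (9.39%) and 1357 lower in both (14.7%). Those differences share the SK-N-FI table and are not independent of each other. LAN5 and IMR5 also differed from each other, in 5608 genes (60.9%), so the amplified lines are not interchangeable. The test measures the spread between libraries of a line and not that between lines: with a between-line gap added to the error, taken as 50% of the distance between LAN5 and IMR5, 682 genes were higher and 1062 lower. Counts by list below stand against the shares of all genes given here: 19.1% higher and 28.2% lower, or 9.39% and 14.7% in both amplified lines.

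Within lines, 2513 genes rose (27.3%) and 3659 fell (39.7%) in LAN5 in the authors' deposited table, 2993 rose (32.5%) and 3422 fell (37.1%) in IMR5, and 2333 rose (25.3%) and 2137 fell (23.2%) in SK-N-FI. A gene is said below to have risen or fallen in a line where the authors' adjusted p was under 0.05. The median SE of the members was larger in SK-N-FI (0.132) than in LAN5 (0.0916) and IMR5 (0.0916). Counts of calls therefore compare lines of unlike precision, and a gene without a call in SK-N-FI is not shown to be unchanged there. The 865 genes higher in both amplified lines came about in several ways, of which the main ones follow. Without a call in SK-N-FI, 339 rose in both amplified lines. Another 80 rose in both and fell in SK-N-FI (0.868% of all genes), 88 rose in all 3 lines and 49 fell in all 3. SK-N-FI fell for 162 with a call in only 1 amplified line, and for 94 with no call in LAN5 or IMR5. Among the 1357 lower genes, 473 fell in both amplified lines without a call in SK-N-FI, and 134 fell in both and rose in SK-N-FI (1.45%). Another 85 fell in all 3 and 57 rose in all 3. SK-N-FI rose for 337 with a call in only 1 amplified line, and for 160 with no call in LAN5 or IMR5. The scatter of effects shows the lists described next against these genes.

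**Figure D1:**
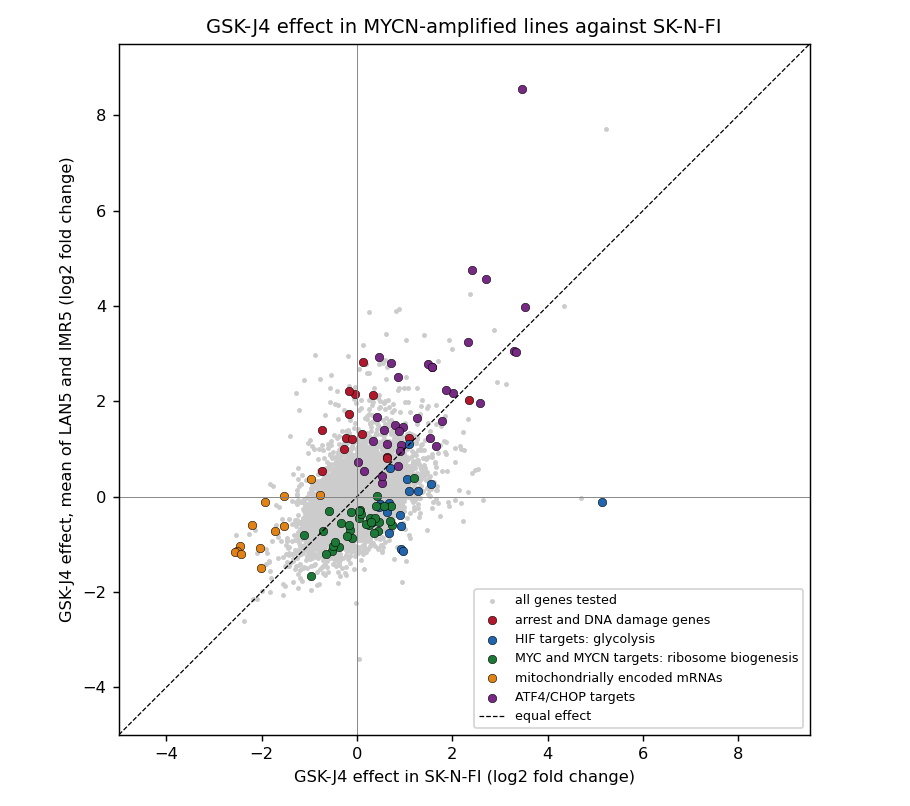
GSK-J4 effect in SK-N-FI (x axis, prior-removed log2 fold change) against the mean effect of LAN5 and IMR5 (y axis, same scale) for the 9215 genes (grey points), with 5 gene lists in colour and the line of equal effect dashed. The 16 arrest and DNA damage genes lie mostly above the dashed line near an SK-N-FI effect of 0, and the 18 glycolytic HIF targets lie on or below it, all at positive SK-N-FI values.

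Genes of cell-cycle arrest, and others known to be induced by DNA damage, rose in LAN5 and IMR5 and had a median effect near 0 in SK-N-FI. Of 16 measured genes of this list, 12 had a higher difference and none a lower one, against 19.1% and 28.2% of all genes, and 11 were higher in both amplified lines. Their median effect was 1.74 in LAN5 and 1.20 in IMR5, against 0.02 in SK-N-FI, with a median difference of 1.31 against -0.08 over all genes. In LAN5 16 of the 16 rose and in IMR5 15, while in SK-N-FI 6 rose and 2 fell. CDKN1A, which encodes the cyclin-dependent kinase inhibitor p21, changed by 3.47 ± 0.079 in LAN5 and 2.18 ± 0.098 in IMR5, against 0.12 ± 0.11 in SK-N-FI, a difference of 2.71 ± 0.13 (adjusted p = 2.3e-98). The gene lies on chromosome 6 (36676460 to 36687339, plus strand, hg38), and its mean normalised counts in the authors' deposited tables were 2924, 4105 and 1275 in LAN5, IMR5 and SK-N-FI. The ribonucleotide reductase subunit RRM2B, which supplies deoxynucleotides for DNA repair, changed by 2.37 ± 0.077 in LAN5 and 2.05 ± 0.080 in IMR5, against -0.17 ± 0.099 in SK-N-FI (difference 2.38 ± 0.11, adjusted p = 2.9e-94). For RRM2B the amplified lines differed by 0.32 ± 0.11 from each other, and SK-N-FI lay near 0. FDXR, a mitochondrial ferredoxin reductase, had a difference of 2.21 ± 0.20.

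MDM2, a ubiquitin ligase, changed by 1.76 ± 0.083 in LAN5 and 0.89 ± 0.069 in IMR5, against 0.10 ± 0.11 in SK-N-FI (difference 1.22 ± 0.12, adjusted p = 4.1e-21). The polo-like kinase PLK2 rose in LAN5 and IMR5 and fell in SK-N-FI, with effects of 0.67 ± 0.070 in LAN5 and 2.13 ± 0.093 in IMR5, against -0.74 ± 0.10 in SK-N-FI. ZMAT3, an RNA-binding splicing regulator, rose in all 3 lines, by 1.72 ± 0.082 in LAN5 and 2.55 ± 0.097 in IMR5, against 0.33 ± 0.097 in SK-N-FI, so its difference of 1.81 ± 0.12 is one of degree. The list was not uniform: GADD45A, a growth-arrest gene, rose in all 3 lines, by 1.83 ± 0.090 in LAN5 and 2.21 ± 0.071 in IMR5, against 2.35 ± 0.17 in SK-N-FI, and its difference of -0.33 ± 0.18 did not pass (adjusted p = 0.12). SESN2, a stress-induced sestrin, rose by 3.22 ± 0.15 in LAN5 and 2.20 ± 0.083 in IMR5, against 1.57 ± 0.17 in SK-N-FI, and its difference of 1.14 ± 0.19 was not called with the between-line gap added. The other 4 genes listed lay under the minimum mean in at least 1 table and were not tested, among them BTG2, an antiproliferative gene whose effects were 1.79 ± 0.12 in LAN5 and 2.32 ± 0.084 in IMR5, against -0.96 ± 0.29 in SK-N-FI.

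**Figure D2:**
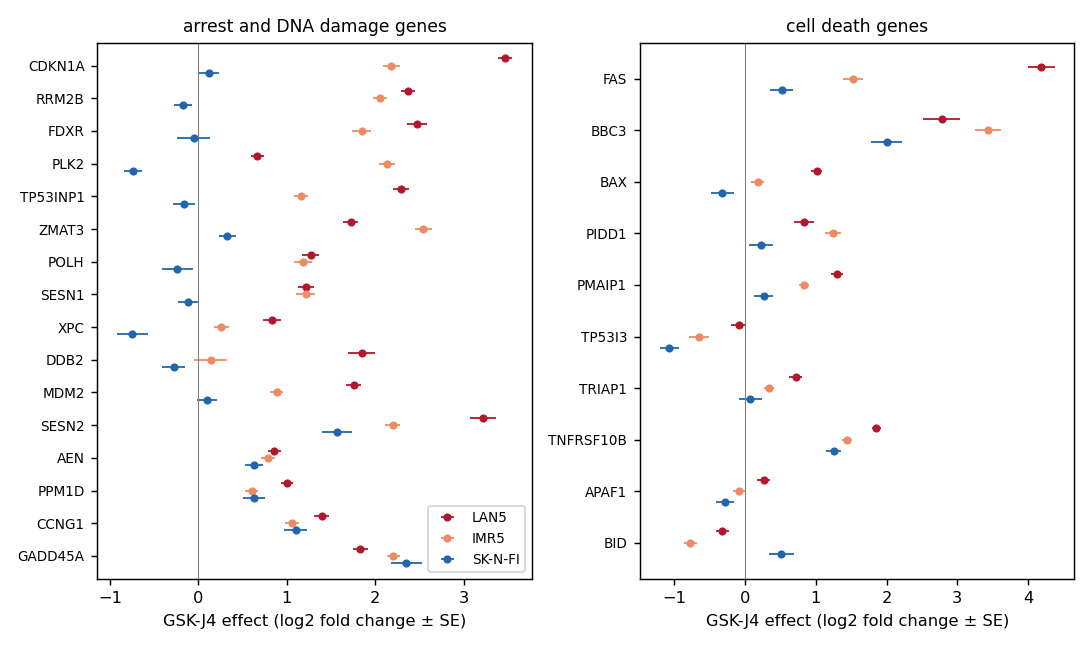
GSK-J4 effect per line (x axis, prior-removed log2 fold change; points are estimates, bars are 1 SE) for arrest and DNA damage genes (left) and cell death genes (right), ordered by the difference between the amplified lines and SK-N-FI. CDKN1A, RRM2B and FDXR lie between 1.85 and 3.47 in LAN5 and IMR5 and near 0 in SK-N-FI, whereas GADD45A and CCNG1 rose in all 3 lines.

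Among 10 damage-induced genes with a role in cell death, 9 had a higher difference and 1 a lower one. Of these, 5 were higher in both amplified lines. The median difference of 0.75 came to 0.46 for IMR5 minus SK-N-FI and to 0.45 with a minimum mean of 500. FAS, the death receptor, rose by 4.18 ± 0.19 in LAN5 and 1.53 ± 0.14 in IMR5, against 0.52 ± 0.16 in SK-N-FI, a difference of 2.34 ± 0.20 (adjusted p = 1.6e-29). It rose in all 3 lines and most in LAN5. BBC3 (PUMA), a BH3-only activator of BAX and BAK, rose by 2.78 ± 0.26 in LAN5 and 3.43 ± 0.18 in IMR5, against 2.00 ± 0.22 in SK-N-FI, and its difference was 1.11 ± 0.27 (adjusted p = 2.1e-04). The killer proteins BAX and PMAIP1 (NOXA) had differences of 0.91 ± 0.17 and 0.80 ± 0.15, and PIDD1, a scaffold for caspase-2, of 0.81 ± 0.19. BID, the BH3-only protein that links death receptors to mitochondria, went the other way: it fell in LAN5 and IMR5 and rose in SK-N-FI, with effects of -0.32 ± 0.085 in LAN5 and -0.77 ± 0.091 in IMR5, against 0.51 ± 0.18 in SK-N-FI. With the between-line gap added to the error, 3 of the 10 were higher, FAS and BAX not among them, against 10 of the 16 arrest and DNA damage genes.

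Of the 11 BCL-2 family genes, 4 were higher and 3 lower, against 19.1% and 28.2% of all genes, with a median difference of -0.01. The lower ones included BCL2 itself, which protects cells from death, with effects of -0.68 ± 0.064 in LAN5 and -0.50 ± 0.080 in IMR5, against 0.08 ± 0.14 in SK-N-FI, and BCL2L11 (BIM), which promotes it, with effects of -0.65 ± 0.097 in LAN5 and -0.79 ± 0.091 in IMR5, against 0.23 ± 0.11 in SK-N-FI. Both fell in the amplified lines and neither passed in SK-N-FI.

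The 12 genes with the largest difference held in both amplified lines included genes outside these lists. PURPL, a long noncoding RNA (chromosome 5, 27472292 to 27496401, plus strand), changed by 1.90 ± 0.10 in LAN5 and 1.75 ± 0.12 in IMR5, against -1.21 ± 0.24 in SK-N-FI. It rose in LAN5 and IMR5 and fell in SK-N-FI, as did the linker histone gene H1-2, listed as HIST1H1C (2.14 ± 0.14 in LAN5 and 2.74 ± 0.22 in IMR5, against -1.12 ± 0.15 in SK-N-FI), the melanin-concentrating hormone receptor MCHR1 (2.49 ± 0.22 in LAN5 and 1.88 ± 0.16 in IMR5, against -1.28 ± 0.17 in SK-N-FI) and the vesicle-transport GTPase RAB3B (1.52 ± 0.15 in LAN5 and 1.03 ± 0.076 in IMR5, against -1.40 ± 0.15 in SK-N-FI). CTBS, a lysosomal chitobiase, and AKAP6, an anchor for protein kinase A, had the same opposite pattern, with differences of 2.17 ± 0.16 and 2.15 ± 0.20. GDF15, a secreted stress cytokine that CHOP can induce, rose in all 3 lines, by 7.44 ± 0.52 in LAN5 and 9.65 ± 0.27 in IMR5, against 3.47 ± 0.27 in SK-N-FI, the largest difference of all members at 5.08 ± 0.40. LMNA, which encodes the nuclear lamins A and C, rose by 2.96 ± 0.094 in LAN5 and 2.42 ± 0.10 in IMR5 and did not pass in SK-N-FI (0.05 ± 0.10). TRIM66, a chromatin-associated tripartite-motif protein, fell in SK-N-FI by 0.78 ± 0.22 and had a difference of 3.25 ± 0.25.

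Glycolytic genes that HIF is known to drive rose in SK-N-FI, were mixed in LAN5 and mostly fell in IMR5. Of 18 glycolytic HIF targets, 18 rose in SK-N-FI. In LAN5 9 rose and 5 fell, and in IMR5 2 rose and 12 fell. The difference was lower for 16 and higher for none, 14 of them in both amplified lines, with a median difference of -0.95, and 4 fell in both amplified lines while they rose in SK-N-FI. The median effects of 0.17 in LAN5 and -0.67 in IMR5, against 0.90 in SK-N-FI, show that IMR5 lay farther from SK-N-FI than LAN5 did. With the between-line gap added to the error, 9 of the 18 were lower.

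PFKFB3, whose product makes the activator of phosphofructokinase, had the lowest difference of all members. It lies on chromosome 10 (6144934 to 6254644, plus strand), and its effects were 0.79 ± 0.065 in LAN5 and -1.03 ± 0.098 in IMR5, against 5.15 ± 0.25 in SK-N-FI, a difference of -5.27 ± 0.26 (adjusted p = 1.6e-89). It rose in LAN5 and SK-N-FI and fell in IMR5, so its sign was not shared by the amplified lines. SLC2A1 (GLUT1), the main glucose transporter of many tumour cells, fell in LAN5 and IMR5 and rose in SK-N-FI (-0.89 ± 0.11 in LAN5 and -1.41 ± 0.086 in IMR5, against 0.96 ± 0.099 in SK-N-FI; difference -2.12 ± 0.12, adjusted p = 1.9e-65). LDHA, the lactate dehydrogenase subunit that turns pyruvate into lactate, had the same pattern (-0.71 ± 0.070 in LAN5 and -1.50 ± 0.096 in IMR5, against 0.92 ± 0.10 in SK-N-FI; difference -2.03 ± 0.12, adjusted p = 7.2e-62). Its mean normalised counts were 10152, 23161 and 16267 in the 3 tables, so this is a change of an abundant mRNA. ENO1 and TPI1, enzymes of the pathway's trunk, had differences of -1.53 ± 0.11 and -1.44 ± 0.16, and ALDOC, the brain aldolase, of -1.29 ± 0.17. ENO2 and HK1 did not differ beyond the error, at 0.00 ± 0.11 and -0.09 ± 0.12.

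The promoters of the 3 glycolytic genes with the largest differences are printed because HIF is known to bind RCGTG, spelled here as ACGTG and GCGTG. Each window runs from 250 bases before to 50 after the gene's start in RefSeq (GRCh38.p14), 5′ to 3′ on the gene's strand, with ACGTG or GCGTG on either strand in capitals. PFKFB3 (chr10:6144671-6144970, plus strand), SLC2A1 (chr1:42958819-42959118, minus strand) and LDHA (chr11:18394313-18394612, plus strand) read as follows.
PFKFB3: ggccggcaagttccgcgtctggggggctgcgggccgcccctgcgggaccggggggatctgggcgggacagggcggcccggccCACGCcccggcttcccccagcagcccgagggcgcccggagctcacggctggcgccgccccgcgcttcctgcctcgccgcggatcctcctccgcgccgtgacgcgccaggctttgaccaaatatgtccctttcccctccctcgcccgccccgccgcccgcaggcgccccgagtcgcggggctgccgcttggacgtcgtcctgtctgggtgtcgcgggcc
SLC2A1: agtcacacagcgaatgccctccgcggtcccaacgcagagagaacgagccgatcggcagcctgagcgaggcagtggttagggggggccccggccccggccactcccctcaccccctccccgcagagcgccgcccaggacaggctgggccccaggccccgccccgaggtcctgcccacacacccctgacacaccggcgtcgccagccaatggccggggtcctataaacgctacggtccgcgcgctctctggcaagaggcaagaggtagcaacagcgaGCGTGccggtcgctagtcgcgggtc
LDHA: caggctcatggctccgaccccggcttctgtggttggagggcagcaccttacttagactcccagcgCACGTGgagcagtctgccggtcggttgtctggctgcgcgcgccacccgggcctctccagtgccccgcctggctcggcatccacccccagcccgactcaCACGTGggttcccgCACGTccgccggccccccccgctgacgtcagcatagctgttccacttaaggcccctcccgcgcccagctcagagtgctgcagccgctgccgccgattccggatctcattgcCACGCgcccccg
The LDHA window held 4 separate marked stretches, 2 of which are the full E-box CACGTG, and the PFKFB3 and SLC2A1 windows held 1 each. ACGTG on either strand, which any CACGTG also contains, was in 8 of 18 windows of the glycolytic list (44.4%) and in 10 of 15 of the other HIF targets (66.7%). It was in 28.4% of the 7407 members' windows that could be matched and in 21.6% of all 27305 in the table. GCGTG, the spelling marked in the PFKFB3 and SLC2A1 windows, was in 9 of 18 glycolytic windows and in 9 of 15 of the other targets (60.0%), against 53.9% of the members' windows and 36.3% of all in the table, so among the members its share was near the background. These shares describe the letters of the windows and not binding.

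**Figure D3:**
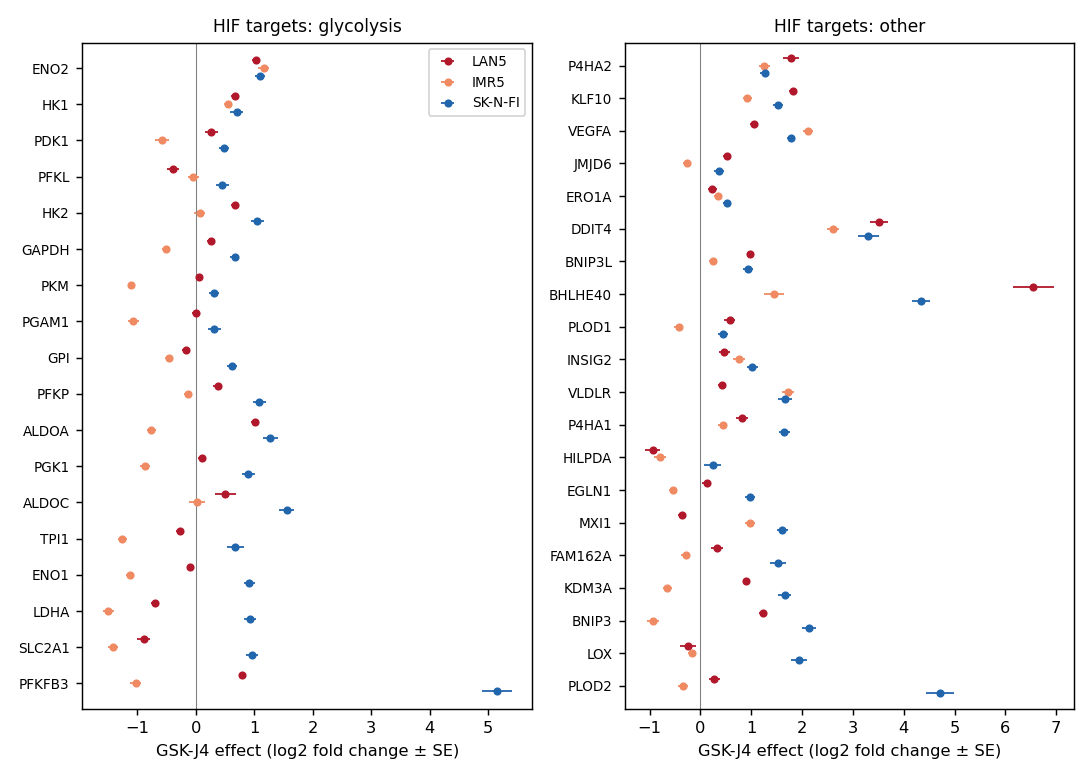
GSK-J4 effect per line (x axis, prior-removed log2 fold change; points are estimates, bars are 1 SE) for glycolytic HIF targets (left) and other HIF targets (right), ordered by the difference. In the left panel all 18 SK-N-FI points lie above 0, and PFKFB3 stands apart at 5.15 in SK-N-FI.

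Of 20 HIF targets outside glycolysis, 14 had a lower difference and none a higher one, 9 of them in both amplified lines, with a median of -0.50. In SK-N-FI 19 of the 20 rose, but 16 rose in LAN5 and 11 in IMR5 as well, where 2 and 8 fell, so for many of them the difference was one of degree. The median effects were 0.55 in LAN5 and 0.29 in IMR5, against 1.57 in SK-N-FI. Lower with the between-line gap added were 6 of the 20. The median difference was -0.32 with a minimum mean of 500, -0.79 for IMR5 minus SK-N-FI and -0.96 with inverse-variance weights. PLOD2, a lysyl hydroxylase that prepares collagen for cross-linking, changed by 0.28 ± 0.10 in LAN5 and -0.34 ± 0.098 in IMR5, against 4.71 ± 0.28 in SK-N-FI (difference -4.74 ± 0.29, adjusted p = 4.8e-58), and LOX, the lysyl oxidase that makes the cross-links, by -0.24 ± 0.16 in LAN5 and -0.17 ± 0.082 in IMR5, against 1.93 ± 0.16 in SK-N-FI. BNIP3, a mitophagy receptor, rose in LAN5 and SK-N-FI and fell in IMR5, with effects of 1.22 ± 0.078 in LAN5 and -0.93 ± 0.12 in IMR5, against 2.14 ± 0.14 in SK-N-FI. KDM3A, a histone demethylase that HIF induces, followed the same order, with a difference of -1.53 ± 0.14, and FAM162A, a mitochondrial HIF target, had one of -1.51 ± 0.17. The calls of BNIP3 and KDM3A were lost with the between-line gap added. VEGFA, the angiogenic growth factor, rose in all 3 lines by 1.05 ± 0.072 in LAN5 and 2.11 ± 0.099 in IMR5, against 1.78 ± 0.084 in SK-N-FI and did not differ beyond the error (-0.20 ± 0.10, adjusted p = 0.1), so the list did not move as one. HIF1A mRNA fell in all 3 lines and most in SK-N-FI (-0.24 ± 0.074 in LAN5 and -0.61 ± 0.058 in IMR5, against -1.07 ± 0.086 in SK-N-FI; difference 0.64 ± 0.098, adjusted p = 7.5e-10), the other direction from the targets. EPAS1 (HIF-2α) was below the minimum, with means of 33.3 in LAN5 and 30.3 in IMR5, against 1982 in SK-N-FI. Its effects were -1.17 ± 0.33 in LAN5 and 2.33 ± 0.41 in IMR5, against 1.10 ± 0.11 in SK-N-FI. It thus fell in LAN5 and rose in IMR5 and SK-N-FI, from low means in LAN5 and IMR5. ADM, which encodes adrenomedullin, was also below the minimum, with effects of 0.13 ± 0.16, 0.21 ± 0.38 and 3.32 ± 0.26.

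Further genes at the lower end rose in SK-N-FI. AK4, a mitochondrial adenylate kinase, PAM, a peptide-amidating enzyme, and the transcription factor ZNF395 rose there by 2.18 ± 0.11, 2.65 ± 0.13 and 1.48 ± 0.13, and their differences were -2.31 ± 0.14, -2.73 ± 0.14 and -2.17 ± 0.15. ZNF395 also fell in both amplified lines (-0.84 ± 0.12 in LAN5 and -0.54 ± 0.099 in IMR5). PAM fell in LAN5 (-0.24 ± 0.073) and AK4 in IMR5 (-0.27 ± 0.090). EPB41L4A-AS1, a long noncoding RNA whose name marks it as antisense to a neighbour, rose in all 3 lines, by 0.46 ± 0.11 in LAN5 and 0.68 ± 0.12 in IMR5, against 2.54 ± 0.18 in SK-N-FI. ENSG00000260400, annotated as overlapping another gene on its strand, fell in LAN5 (-0.54 ± 0.20) and IMR5 (-0.50 ± 0.17) and rose in SK-N-FI (2.22 ± 0.29). Its difference was -2.74 ± 0.32. Whether strand was used in counting is not given in the sources used here, so reads of these last genes and of their partners may not be separable. IGFBP5, a secreted binding protein for insulin-like growth factors, and LRRN3, a neuronal membrane protein, instead fell in the amplified lines: IGFBP5 changed by -2.94 ± 0.071 in LAN5 and -3.88 ± 0.15 in IMR5, against 0.03 ± 0.16 in SK-N-FI and LRRN3 by -1.95 ± 0.067 in LAN5 and -2.52 ± 0.14 in IMR5, against -0.01 ± 0.11 in SK-N-FI, and neither passed in SK-N-FI. The neuronal membrane protein PLPPR4 (-1.45 ± 0.069 in LAN5 and -1.24 ± 0.10 in IMR5, against 1.02 ± 0.18 in SK-N-FI) and ARHGAP36, an inhibitor of protein kinase A (-2.02 ± 0.19 in LAN5 and -1.56 ± 0.065 in IMR5, against 0.95 ± 0.13 in SK-N-FI), fell in both amplified lines and rose in SK-N-FI. SDC2, a heparan sulphate proteoglycan, and GRK5, a kinase of G-protein-coupled receptors, did so with differences of -2.09 ± 0.17 and -1.89 ± 0.20.

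Targets of MYC and MYCN in ribosome biogenesis fell in the amplified lines and were divided in SK-N-FI. Of 34 such genes, 29 fell in LAN5 and 31 in IMR5, whereas in SK-N-FI 10 rose and 8 fell. The difference was lower for 29 and higher for none, against 28.2% and 19.1% of all genes, and 25 were lower in both amplified lines. The median effect was -0.54 in LAN5 and -0.56 in IMR5, against 0.06 in SK-N-FI, with a median difference of -0.61. These changes are of under 1 log2 unit for most genes. The medians of LAN5 and IMR5 lay close together, and 23 of the 34 were lower with the between-line gap added, but single genes differed between the 2 lines: LAN5 minus IMR5 was -0.79 ± 0.10 for FBL (adjusted p = 8.0e-14), which lost its call with the gap added, and 0.38 ± 0.10 for PES1 (adjusted p = 6.8e-04). LYAR, a nucleolar factor of pre-rRNA processing, changed by -0.72 ± 0.11 in LAN5 and -0.47 ± 0.095 in IMR5, against 0.73 ± 0.17 in SK-N-FI (difference -1.32 ± 0.18, adjusted p = 7.6e-12). NOP16, also nucleolar, changed by -0.50 ± 0.14 in LAN5 and -0.52 ± 0.099 in IMR5, against 0.69 ± 0.14 in SK-N-FI (difference -1.20 ± 0.17). LYAR, NOP16 and PES1, a subunit of the complex that matures the large ribosomal subunit, fell in both amplified lines and rose in SK-N-FI. RRP9, a protein of the U3 small nucleolar particle, had a difference of -1.13 ± 0.17, FBL, the methyltransferase fibrillarin, of -1.01 ± 0.16, and NOP2, an rRNA methyltransferase, of -0.91 ± 0.10. Nucleolin (NCL) fell in all 3 lines, by -1.13 ± 0.064 in LAN5 and -1.16 ± 0.053 in IMR5, against -0.53 ± 0.085 in SK-N-FI, and its difference of -0.62 ± 0.095 is one of degree.

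The promoters of PES1 and RRP9 are printed because they had the largest differences among the genes of this list that hold the E-box CACGTG, and were chosen for holding it. The windows are those of the RefSeq table (GRCh38.p14), PES1 at chr22:30591861-30592160 and RRP9 at chr3:51941855-51942154, both on the minus strand and printed 5′ to 3′ on it, with CACGTG in capitals.
PES1: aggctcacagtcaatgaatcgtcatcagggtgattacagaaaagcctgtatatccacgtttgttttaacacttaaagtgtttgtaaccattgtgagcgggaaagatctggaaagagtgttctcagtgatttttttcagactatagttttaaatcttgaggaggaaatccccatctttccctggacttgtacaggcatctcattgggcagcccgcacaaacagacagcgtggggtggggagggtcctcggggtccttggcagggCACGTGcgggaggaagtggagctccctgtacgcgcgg
RRP9: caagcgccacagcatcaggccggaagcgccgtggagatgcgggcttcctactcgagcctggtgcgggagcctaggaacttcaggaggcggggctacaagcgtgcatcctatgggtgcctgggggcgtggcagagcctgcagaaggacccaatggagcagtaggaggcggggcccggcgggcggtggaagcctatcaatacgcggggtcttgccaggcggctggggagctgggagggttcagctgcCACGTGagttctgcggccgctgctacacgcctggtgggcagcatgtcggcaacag
CACGTG, which reads the same on both strands, was in 8 of the 27 matched windows of this list (29.6%), in 10.9% of the members' windows and in 7.43% of all windows in the table. It was in 181 of 1102 windows of genes lower in both amplified lines (16.4%) and in 55 of 693 of genes higher in both (7.94%). LYAR and NOP16 have no CACGTG in the window, which says nothing of what binds there.

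**Figure D4:**
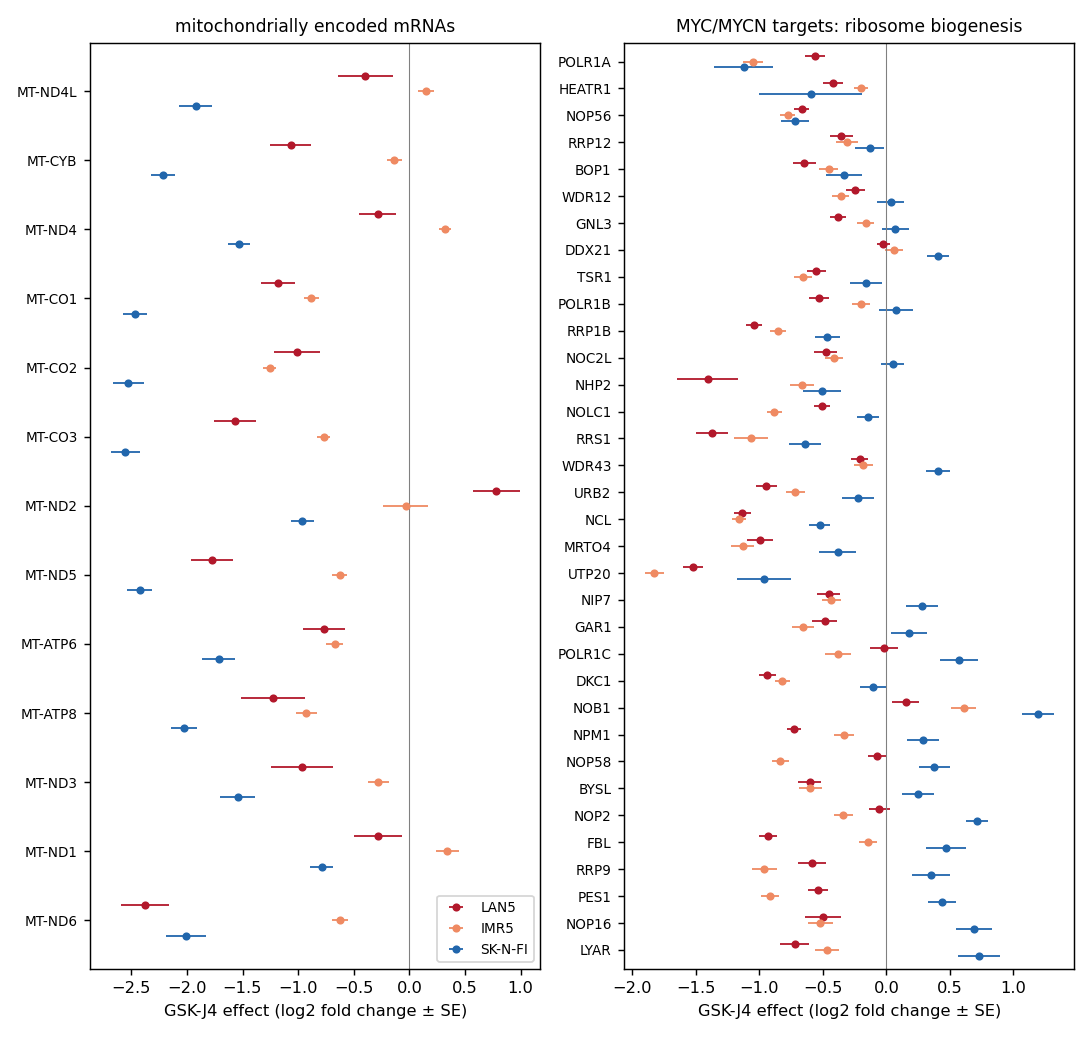
GSK-J4 effect per line (x axis, prior-removed log2 fold change; points are estimates, bars are 1 SE) for the 13 mitochondrially encoded mRNAs (left) and 34 ribosome biogenesis genes (right), ordered by the difference. SK-N-FI lies lowest of the 3 lines for 12 of the 13 mitochondrial mRNAs, with MT-ND6 the exception, and highest of the 3 for most ribosome biogenesis genes.

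MYCN fell in both amplified lines, by 1.91 ± 0.049 in LAN5 and 1.08 ± 0.071 in IMR5, and did not pass in SK-N-FI (-0.32 ± 0.22), where its mean was 116, just above the minimum. The difference was -1.17 ± 0.22 (adjusted p = 8.7e-07); the gene lies on chromosome 2 (15940564 to 15947007, plus strand). MYC, untested for its low means, had an effect of 2.76 ± 0.49 in LAN5 and 1.60 ± 0.77 in IMR5, against 0.24 ± 0.14 in SK-N-FI, from means of 20.2, 7.40 and 274.9, and the authors' test called it in LAN5 and not in IMR5 or SK-N-FI. Of 10 members of the network of MYC, MAX and their antagonists, 5 were lower and 2 higher. MXI1, an antagonist of MYC that HIF also induces, changed by -0.37 ± 0.072 in LAN5 and 0.97 ± 0.10 in IMR5, against 1.61 ± 0.10 in SK-N-FI, and MXD1, another antagonist, rose in all 3 lines with a higher difference (0.53 ± 0.14). MAX, the shared partner, did not pass in the difference (-0.14 ± 0.15, adjusted p = 0.46). MNT and MLXIP, further members of the network, had differences of -0.67 ± 0.15 and -0.69 ± 0.12. With the between-line gap added, the calls of MYCN, MXI1, MNT and MLXIP were lost. Of 8 neighbours of the MYCN amplicon, 2 were higher and 3 lower. CYRIA, which lies near MYCN and restrains actin branching through RAC1, rose in both amplified lines and fell in SK-N-FI (2.62 ± 0.099 in LAN5 and 1.96 ± 0.17 in IMR5, against -0.58 ± 0.14 in SK-N-FI), the other direction from MYCN. DDX1 fell in all 3 lines, and its difference of -0.21 ± 0.096 did not pass (adjusted p = 0.059).

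Other genes known as MYC targets moved less uniformly: of 27, 16 were lower and 3 higher, with a median of -0.33. NME1, a nucleoside diphosphate kinase, the mitochondrial chaperonin HSPD1 and the prohibitin PHB1 had differences of -0.82 ± 0.21, -0.82 ± 0.12 and -0.80 ± 0.13. TFRC, the transferrin receptor, and ODC1, the first enzyme of polyamine synthesis, rose most in SK-N-FI and had differences of -0.92 ± 0.13 and -0.66 ± 0.14. RCC1, the exchange factor for the GTPase RAN, fell in all 3 lines with a difference of -0.79 ± 0.12. The 3 higher genes, CAD, GART and CTPS1, are enzymes of pyrimidine and purine synthesis. Each fell in SK-N-FI, and their differences were 0.60 ± 0.17, 0.35 ± 0.097 and 0.54 ± 0.11. In the amplified lines CTPS1 fell less in both, CAD fell in LAN5 and was not called in IMR5, and GART was called in neither. The calls of TFRC, CAD and GART were lost with the between-line gap added.

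mRNAs of the cytosolic ribosomal proteins rose in SK-N-FI (28 of 30) and IMR5 (24 of 30), whereas in LAN5 1 rose and 11 fell. The difference was lower for 27 of 30 and higher for none, with a median of -0.60. That median was -0.84 for LAN5 minus SK-N-FI and -0.31 for IMR5 minus SK-N-FI. Both amplified lines held the difference for only 9, and 7 were lower with the between-line gap added. RPSA, a protein of the small subunit that also has a surface receptor form, changed by -0.52 ± 0.079 in LAN5 and 0.12 ± 0.071 in IMR5, against 0.86 ± 0.15 in SK-N-FI, and RPL30, of the large subunit, by -0.33 ± 0.10 in LAN5 and 0.21 ± 0.11 in IMR5, against 0.77 ± 0.12 in SK-N-FI. These genes have many processed pseudogenes, and how the authors' counting treated reads shared with them is not given in the sources used here.

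The 13 mRNAs encoded by mitochondrial DNA, all subunits of the respiratory chain or ATP synthase, fell in SK-N-FI (13 of 13) and fell less in the amplified lines. In LAN5 9 fell and 1 rose, and in IMR5 8 fell and 2 rose. The difference was higher for all 13, in both amplified lines for 10, with a median of 1.34 and a range of 0.51 to 1.80. MT-CO1, a catalytic subunit of cytochrome oxidase, changed by -1.18 ± 0.15 in LAN5 and -0.88 ± 0.070 in IMR5, against -2.47 ± 0.11 in SK-N-FI (difference 1.43 ± 0.14, adjusted p = 9.9e-24). MT-CYB, of complex III, changed by -1.07 ± 0.19 in LAN5 and -0.13 ± 0.066 in IMR5, against -2.22 ± 0.11 in SK-N-FI (difference 1.61 ± 0.15), and MT-ND4L, of complex I, by -0.39 ± 0.24 in LAN5 and 0.15 ± 0.069 in IMR5, against -1.92 ± 0.15 in SK-N-FI (difference 1.80 ± 0.20). MT-ND6, the mRNA encoded on the other strand, was the exception in rank: it fell most in LAN5 (-2.38 ± 0.22 in LAN5 and -0.62 ± 0.075 in IMR5, against -2.01 ± 0.18 in SK-N-FI). The mitochondrial rRNAs went the other way from the mRNAs. MT-RNR2 fell in the amplified lines and rose in SK-N-FI (-1.0 ± 0.19 in LAN5 and -0.71 ± 0.30 in IMR5, against 0.53 ± 0.13 in SK-N-FI; difference -1.38 ± 0.22), and MT-RNR1 had a difference of -1.05 ± 0.28. With the between-line gap added, 9 of the 13 mRNAs were higher, and the calls of MT-ND6 and MT-RNR1 were lost. The libraries were made from polyadenylated RNA, in which the rRNA share also depends on the selection, and its part in these values was not tested.

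Nuclear genes of the same system did not follow the mitochondrial mRNAs. Of 28 nuclear-encoded respiratory subunits, 8 were lower, a share near the 28.2% of all genes, and none was higher, against 19.1%. Their median difference was -0.26 (-0.10 for IMR5 minus SK-N-FI). NDUFS3, a core subunit of complex I, was the only member called lower in both amplified lines, against 14.7% of all genes. Its effects were -0.49 ± 0.10 in LAN5 and -0.65 ± 0.083 in IMR5, against 0.31 ± 0.18 in SK-N-FI (difference -0.88 ± 0.19). Of 17 genes of the machinery that expresses the mitochondrial genome, 7 were lower and 1 higher, against 28.2% and 19.1% of all genes. TFB2M, the transcription factor that opens mitochondrial promoters, and TWNK, the replicative helicase, fell in both amplified lines and did not pass in SK-N-FI, with differences of -1.02 ± 0.16 and -0.90 ± 0.12. TOP1MT, the mitochondrial topoisomerase, and NRF1, a nuclear regulator of respiratory genes, had differences of -1.21 ± 0.16 and -0.97 ± 0.15, of which TOP1MT lost its call with the between-line gap added. GABPA, another such regulator, was the higher one, at 0.38 ± 0.13.

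Target mRNAs of ATF4 and CHOP rose in all 3 lines with few exceptions, and their median fold was higher in the amplified ones. Of 33 ATF4 and CHOP targets, 33 rose in LAN5 and 33 in IMR5, and 31 in SK-N-FI. The difference was higher for 19 and lower for 4, in both amplified lines for 14 and 1, with medians of 1.68, 1.69 and 0.97 for the effects and 0.48 for the difference. TRIB3, a pseudokinase induced by CHOP, rose by 4.35 ± 0.11 in LAN5 and 5.15 ± 0.17 in IMR5, against 2.42 ± 0.16 in SK-N-FI (difference 2.33 ± 0.19, adjusted p = 3.6e-32). ATF3, a stress factor that also counts as an immediate early gene, rose by 2.58 ± 0.14 in LAN5 and 3.28 ± 0.13 in IMR5, against 0.45 ± 0.12 in SK-N-FI (difference 2.47 ± 0.16). SLC7A11, the cystine transporter subunit, rose by 5.57 ± 0.11 in LAN5 and 3.58 ± 0.13 in IMR5, against 2.70 ± 0.13 in SK-N-FI, and HERPUD1, of the endoplasmic reticulum's degradation machinery, by 1.84 ± 0.076 in LAN5 and 3.20 ± 0.25 in IMR5, against 0.87 ± 0.13 in SK-N-FI. ATF5 had a difference of 2.08 ± 0.23 that was not held by LAN5: its effects were 0.98 ± 0.15 in LAN5 and 4.62 ± 0.25 in IMR5, against 0.72 ± 0.18 in SK-N-FI. The 4 lower members, SLC3A2, VLDLR, MTHFD2 and ERO1A, rose in all 3 lines, and SLC3A2, the partner chain of SLC7A11, rose most in SK-N-FI (2.10 ± 0.081 in LAN5 and 1.83 ± 0.11 in IMR5, against 2.58 ± 0.14 in SK-N-FI). With the between-line gap added, 8 were higher and 1 lower, and SLC7A11, HERPUD1 and ATF5 lost the call.

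A promoter window of ATF3 (RefSeq, GRCh38.p14, chr1:212565157-212565456, plus strand) is printed, with TGATGNAA, a core of the CHOP and ATF4 element, in capitals. ATF3 had the largest difference among the members that hold TGATGNAA and was chosen for holding it. A single window per gene was used, so any other start site of ATF3 was not examined.
ATF3: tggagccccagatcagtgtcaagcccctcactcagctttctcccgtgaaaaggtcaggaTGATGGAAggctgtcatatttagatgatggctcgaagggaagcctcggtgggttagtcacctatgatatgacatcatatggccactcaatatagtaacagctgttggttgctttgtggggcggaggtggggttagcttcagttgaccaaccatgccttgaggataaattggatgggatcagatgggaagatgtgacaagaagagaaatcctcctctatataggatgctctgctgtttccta
TGATGNAA on either strand was in 6 of 27 matched windows of these targets (22.2%), in 3.03% of windows of genes higher in both amplified lines, in 0.998% of those lower in both, and in 1.40% of the members' windows, against 3.67% of all windows in the table.

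Of 14 genes of the unfolded protein response, 6 were higher and 2 lower, against 19.1% and 28.2% of all genes. Their median difference was 0.24. EDEM1, which extracts misfolded proteins, rose in all 3 lines with a difference of 1.29 ± 0.15, while ATF6, a sensor of that response, and SEL1L, an adaptor of its degradation complex, rose in the amplified lines and did not pass in SK-N-FI, with differences of 0.85 ± 0.12 and 0.67 ± 0.13.

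Immediate early genes, which respond to growth-factor and stress signalling, were also higher in the amplified lines. Of 15, 10 were higher and none lower, 8 in both amplified lines, with a median of 1.20. That median came to 0.68 for LAN5 minus SK-N-FI, 0.64 with a minimum mean of 500 and 0.71 with inverse-variance weights. EGR1, a zinc-finger factor at the head of this group, rose by 2.85 ± 0.13 in LAN5 and 4.90 ± 0.38 in IMR5 and did not pass in SK-N-FI (0.25 ± 0.12; difference 3.62 ± 0.24, adjusted p = 1.8e-50). The signalling inhibitors SPRY4 and DUSP4, which are induced by the ERK pathway they restrain, changed by 1.25 ± 0.072 in LAN5 and 3.34 ± 0.19 in IMR5, against -0.05 ± 0.12 in SK-N-FI and by 1.22 ± 0.060 in LAN5 and 2.01 ± 0.12 in IMR5, against -0.15 ± 0.098 in SK-N-FI. IER2 and JUND had differences of 1.58 ± 0.15 and 1.32 ± 0.16. VGF, a neurotrophin-induced secreted peptide precursor, rose in all 3 lines with a difference of 3.09 ± 0.23. NGFR, the low-affinity neurotrophin receptor, rose in the amplified lines and fell in SK-N-FI (1.47 ± 0.16 in LAN5 and 4.49 ± 0.21 in IMR5, against -0.88 ± 0.13 in SK-N-FI; difference 3.86 ± 0.18, adjusted p = 1.6e-95). The calls of NGFR, SPRY4 and JUND were lost with the between-line gap added.

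Genes of neuronal differentiation were higher for 9 of 18 and lower for 4, with a median of 0.38. That median was 0.08 for LAN5 minus SK-N-FI and 0.44 for IMR5 minus SK-N-FI. Of the 18, 5 were higher in both amplified lines, and 3 were higher with the between-line gap added. SYP, a synaptic vesicle protein, and NEFL, the light neurofilament chain, rose in the amplified lines and did not pass in SK-N-FI, with differences of 0.73 ± 0.15 and 0.68 ± 0.11. The synaptic fusion protein SNAP25 rose most in SK-N-FI (0.77 ± 0.060 in LAN5 and -0.14 ± 0.12 in IMR5, against 1.29 ± 0.15 in SK-N-FI), and INA, another neurofilament protein, fell in the amplified lines and rose in SK-N-FI (difference -0.98 ± 0.10). Adrenergic-state genes were mixed, with 3 of 17 higher and 6 lower, against 19.1% and 28.2% of all genes. The amplified lines went apart: the median was -0.68 for LAN5 minus SK-N-FI and 0.33 for IMR5 minus SK-N-FI. RET, a receptor tyrosine kinase, rose in the amplified lines and fell in SK-N-FI (0.25 ± 0.057 in LAN5 and 1.19 ± 0.21 in IMR5, against -0.63 ± 0.090 in SK-N-FI). The secretory-granule proteins SCG2 and CHGB had differences of 1.26 ± 0.12 and 0.99 ± 0.12, while the transcription factor GATA3 (-1.16 ± 0.19) and the noradrenaline transporter SLC6A2 (-0.77 ± 0.16) were lower. Of 7 mesenchymal-state genes that could be measured, 4 were lower: TWIST1, a factor of epithelial-mesenchymal transition, changed by -1.45 ± 0.073 in LAN5 and -0.28 ± 0.10 in IMR5, against 1.11 ± 0.18 in SK-N-FI, and VIM, vimentin, by -0.04 ± 0.089 in LAN5 and 0.02 ± 0.063 in IMR5, against 1.16 ± 0.16 in SK-N-FI. With the between-line gap added, SNAP25, INA, SCG2 and GATA3 lost the call.

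Metal and antioxidant genes did not move as single groups. MT2A, a metallothionein that binds zinc and copper, rose in all 3 lines, by 7.81 ± 0.46 in LAN5 and 7.61 ± 0.24 in IMR5, against 5.22 ± 0.19 in SK-N-FI (difference 2.49 ± 0.32, adjusted p = 3.6e-13), and 4 of the 8 metal genes measured were higher and 2 lower. Of 22 NRF2 targets, 9 were higher and 7 lower, against 19.1% and 28.2% of all genes. The amplified lines went apart on them: 20 rose in LAN5, while in IMR5 7 rose and 11 fell. HMOX1, haem oxygenase, rose by 9.46 ± 0.26 in LAN5 and 2.38 ± 0.16 in SK-N-FI and fell by 0.97 ± 0.21 in IMR5, so its difference of 1.87 ± 0.23 was set by LAN5 alone, as was that of the quinone reductase NQO1 (4.49 ± 0.10 in LAN5 and 0.05 ± 0.093 in IMR5, against 1.06 ± 0.15 in SK-N-FI). GCLC, the catalytic subunit of glutathione synthesis, TKT, transketolase, and ABCC1, an efflux pump, were lower in both amplified lines, at -0.87 ± 0.12, -0.69 ± 0.11 and -0.94 ± 0.15. GCLM, the other subunit of that enzyme, like HMOX1 and NQO1, had LAN5 and IMR5 on opposite sides of SK-N-FI: 3.14 ± 0.11 in LAN5 and -0.86 ± 0.076 in IMR5, against 0.75 ± 0.11 in SK-N-FI. HMOX1, NQO1 and GCLM lost the call with the between-line gap added. Of 11 heat shock genes, 4 were higher and 4 lower, against 19.1% and 28.2% of all genes. Here too the amplified lines went apart: 8 rose and none fell in LAN5, while in IMR5 2 rose and 8 fell. The median was 0.53 for LAN5 minus SK-N-FI and -0.72 for IMR5 minus SK-N-FI. HSPB1, a small heat shock protein, was higher in both amplified lines (1.72 ± 0.20), and HSF1, the master factor, was lower (-0.60 ± 0.14), having risen in all 3 lines.

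Cell-cycle genes fell in all 3 lines, and their differences had no common direction. Of 34 G1/S genes, 29 fell in LAN5 and 33 in IMR5, and 28 in SK-N-FI, and of 34 G2/M genes 33, 29 and 27 fell. In each list 5 were higher and 11 lower in the difference, shares near the 19.1% and 28.2% of all genes, with medians of 0.03 and -0.10. The amplified lines went apart on both lists. The G1/S median was 0.19 for LAN5 minus SK-N-FI and -0.24 for IMR5 minus SK-N-FI, and the G2/M median was -0.56 and 0.28. In both amplified lines, none of the G1/S genes was higher and 6 were lower, and of the G2/M genes 2 were higher and 2 lower. Among the G1/S genes GINS2 and MCM7, parts of the replicative helicase, and E2F1, the factor of S-phase entry, fell more in the amplified lines, with differences of -0.89 ± 0.18, -0.73 ± 0.091 and -0.83 ± 0.15. Among the G2/M genes CDC20, an activator of the anaphase complex, and MYBL2, a factor of mitotic genes, did so too (-0.87 ± 0.14, a call lost with the between-line gap added, and -0.78 ± 0.11), whereas HMMR, a spindle protein, fell more in SK-N-FI (0.90 ± 0.14).

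Cholesterol synthesis had 10 of 21 genes lower and 3 higher, with a median of -0.26 (-0.11 without a minimum mean). INSIG1, the sensor that holds back the sterol response, and DHCR7, which makes the last step to cholesterol, had differences of -0.65 ± 0.14 and -0.60 ± 0.14. STARD4, a sterol carrier, rose most in IMR5 and had a difference of 0.99 ± 0.096. Of the 4 genes of the interferon and MHC class I list that could be measured, 3 were higher.

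Neither enzyme that GSK-J4 inhibits passed the test of the difference. KDM6A rose by 0.51 ± 0.10 in LAN5 and 0.42 ± 0.098 in IMR5, against 0.40 ± 0.14 in SK-N-FI, and its difference was 0.06 ± 0.16 (adjusted p = 0.78). KDM6B rose by 0.55 ± 0.078 in LAN5 and 1.18 ± 0.091 in IMR5, against 0.85 ± 0.15 in SK-N-FI, with a difference of 0.01 ± 0.16 (adjusted p = 0.96). EZH2, the methyltransferase of PRC2, fell in all 3 lines, and its difference of 0.19 ± 0.10 did not pass (adjusted p = 0.11). With SEs of 0.10 to 0.16, these values do not show that the lines responded alike. Of the 13 genes of this group 2 were higher and 1 lower, against 19.1% and 28.2% of all genes. The lower one was JARID2, a PRC2 cofactor (-0.53 ± 0.14).

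**Figure D5:**
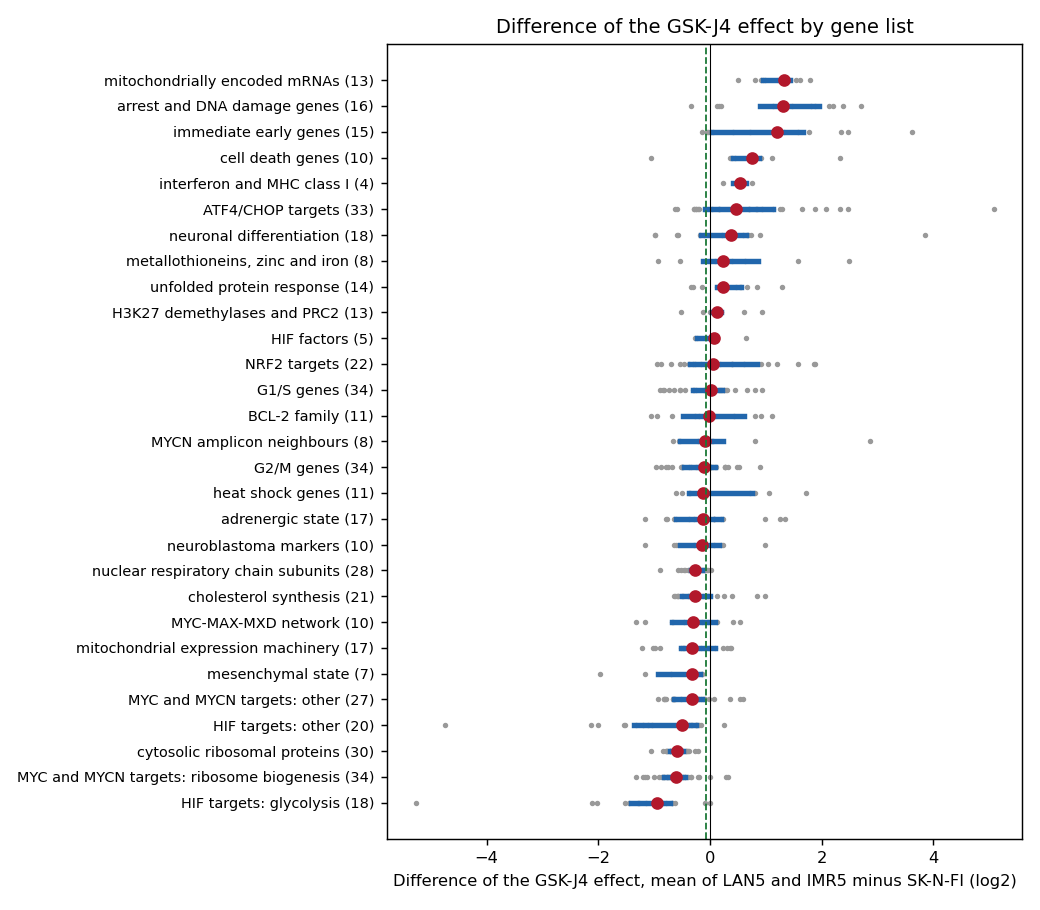
Difference of the GSK-J4 effect (x axis, log2; mean of LAN5 and IMR5 minus SK-N-FI) for each gene list with at least 4 members, with the number measured in brackets. Grey points are genes, blue bars run from the lower to the upper quartile, red points are medians, and the green dashed line is the median of all genes (-0.08); medians run from -0.95 for glycolytic HIF targets to 1.34 for the mitochondrially encoded mRNAs.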

How the data were processed

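Polyadenylated RNA of 4 neuroblastoma lines was sequenced from strand-specific libraries, per the labels' protocols, and 18 of the 24 libraries, those of LAN5, IMR5 and SK-N-FI, enter through 1 comparison table per line. FastQC, STAR, DESeq2 and hg38 are named in the submitters' processing notes without versions. The counting tool, annotation release, use of strand in counting and design formula are not stated here (not given in the sources used here). Per the file headers, the signal values are mean normalized counts over the libraries of a line, each table normalized by the authors on its own. The log2 fold changes and their standard errors are as deposited by the authors, as are the Wald statistic, a score, and each p-value of their DESeq2 test with its adjusted form. Values of single libraries were not used, so their depth is unknown, and intervals that need it are left out. No label says whether the 3 replicates of a group were separate cultures, so a p-value here reflects how far these libraries spread, possibly for technical reasons alone.

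The deposited standard errors have a ceiling (0.428 for SK-N-FI, 0.539 for LAN5 and 0.490 for IMR5), the mark of a normal prior that shrinks fold changes. A ceiling fixes the prior: its SD is 2 times that value. Each fold change and error was solved for its size without the prior, which moved the members by a median of 0.0070 for SK-N-FI, 0.0026 for LAN5 and 0.0032 for IMR5. The mean of LAN5 and IMR5 minus SK-N-FI was tested with a two-sided Wald test and Benjamini-Hochberg adjustment over the 9215 genes, called at 0.05, with Python 3.11.15, numpy 2.4.6, pandas 2.3.3 and scipy 1.17.1. The test was run on simulated fold changes, drawn with the SEs that the test uses and with the same true effect in LAN5 and IMR5. That run checks the calculation only. It cannot show whether the SEs are right or how differences between lines affect the calls. Alternatives were other minimum means, the prior kept, centred lines, each amplified line alone, other weights, a between-line term and a stricter threshold.

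The members, the 32 gene lists and the rule for named genes were chosen with earlier results of these data known, and lists are described by counts and medians with no test. Named were the 12 largest differences per direction held in both amplified lines, 6 genes of opposite effect per direction, up to 6 called members per list with those called against its median, a fixed set (among them MYCN, KDM6A and HIF1A) and 6 genes set by 1 amplified line; not all genes so named are printed, and some items are not reported here. GADD45A, SESN2, VEGFA, ENO2, HK1, NCL, DDX1, BTG2, ADM and the mitochondrial MT-ND6, MT-RNR1 and MT-RNR2 were named after their values were seen. Symbols came from the reference name table (9185 of 9215 identifiers), gene positions from GENCODE 29 and promoter windows from RefSeq, matched for 7407 members.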

Additional observations from a re-analysis of the deposited data

Results flagged for a closer look

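The effect differed between the amplified lines and SK-N-FI, by the Wald test of the difference, in 4363 genes. Among them, MCHR1 (3.47), PURPL (3.04), H1-2 (3.56), RAB3B (2.68), CTBS (2.17) and AKAP6 (2.15) rose in LAN5 and IMR5 and fell in SK-N-FI; the values are differences on the log2 scale. PLPPR4 (-2.37), ARHGAP36 (-2.74), SLC2A1 (-2.12), SDC2 (-2.09), GRK5 (-1.89) and LDHA (-2.03) did the reverse. These 12 were picked for the size of their opposite effects.

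LAN5 and IMR5 also differed from each other, and in 455 genes (4.94% of the 9215) their responses lay on opposite sides of that of SK-N-FI, both differences passing the test, so that the mean of the pair describes neither line. For 6 of these, picked for a large gap relative to the difference of the mean, the values follow. LAN5 minus IMR5 was 4.0 for GCLM, a subunit of glutathione synthesis, 2.94 for RAB31, a GTPase of vesicle traffic, 3.28 for PELI2, a ubiquitin ligase of innate signalling, 3.26 for LGALS8, a galectin, and 2.65 for SFXN5, a mitochondrial carrier. It was -2.19 for GID4, a substrate receptor of a ubiquitin ligase.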

How the results depend on the processing

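The counts of 1761 higher and 2602 lower genes became 855 and 1607 with a minimum mean of 500, where fewer genes were tested, and 682 and 1062 with the between-line term; the cause of the latter is the term itself. With the minimum of 500, 425 were higher and 836 lower in both amplified lines, and opposite effects fell to 34 and 79. Without a minimum, 130 genes rose in the amplified lines and fell in SK-N-FI, and at an adjusted p under 0.01 opposite effects numbered 51 and 73. Over the alternatives, the median difference of arrest and DNA damage genes ran from 1.16 to 1.54, of glycolytic HIF targets from -1.40 to -0.75, of ribosome biogenesis from -0.62 to -0.54, of mitochondrial mRNAs from 0.99 to 1.42 and of ATF4/CHOP targets from 0.43 to 0.56. Other list medians moved by over 1.5 times, each with its sign kept. Values are given above for cell death genes, HIF targets outside glycolysis, cytosolic ribosomal proteins, nuclear respiratory subunits, immediate early genes, neuronal differentiation and cholesterol synthesis. Further lists did so too, among them these. Mesenchymal genes (-0.32) stood at -1.17 with a minimum mean of 500, and the MYC-MAX-MXD network (-0.30) at -0.14. Metal genes (0.24) stood at 0.51 with a minimum of 50 and 0.092 with 500. For LAN5 minus SK-N-FI, MYCN amplicon neighbours (-0.087) stood at -0.31 and the H3K27 list (0.14) at 0.005. For IMR5 minus SK-N-FI, mitochondrial expression machinery (-0.31) stood at -0.16.

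List medians near 0 changed sign. With a minimum of 500, NRF2 targets stood at -0.046 and adrenergic genes at 0.068. Without a minimum, HIF factors stood at -0.073, and with centred lines the BCL-2 family at 0.070. For LAN5 minus SK-N-FI, HIF factors were at -0.16, the BCL-2 family at 0.26, heat shock genes at 0.53 and the fibroblast marker at 0.10. For IMR5 minus SK-N-FI, HIF factors were at -0.052, NRF2 targets at -0.70 and G1/S at -0.24. G2/M was at 0.28 there, adrenergic genes at 0.33 and neuroblastoma markers at 0.52. With inverse-variance weights, NRF2 targets were at -0.14, adrenergic genes at 0.040 and the BCL-2 family at 0.0031. Of the 149 genes examined, 38 lost the call with the between-line term. The following differences changed sign. With LAN5 alone they were EZH2 (-0.051), KDM6B (-0.30), LGALS8 (1.12), GID4 (-0.75) and MT-ND6 (-0.37). With IMR5 alone they were GCLM (-1.61), HMOX1 (-3.34), ENO2 (0.061), VEGFA (0.33), PELI2 (-1.17), SFXN5 (-0.88), VLDLR (0.059), RAB31 (-1.06) and NQO1 (-1.01). With inverse-variance weights they were GCLM (-0.33), LGALS8 (0.16), KDM6B (-0.038), PELI2 (-0.24) and RAB31 (-0.31), and ENO2 stood at 0.0041 with the prior kept and at 0.078 with centred lines. Apart from the alternatives said above to shrink the set of genes or widen the error, the cause was not tested.

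No paired analysis was possible because no value per library was used; leaving out single replicates and count models in other tools were not run for the same reason. With 1 wild-type line, the spread between such lines is unknown.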

Other observations

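SK-N-BE(2), the fourth line of the series, is MYCN-amplified and labelled resistant, and it enters none of the comparisons above. In the authors' deposited table for that line, 118 of 9195 members with an adjusted p rose and 80 fell. Of the 865 genes higher in both amplified sensitive lines, 18 rose and 14 fell there, and of the 1357 lower genes, 16 rose and 15 fell. That table was fitted by the authors on its own, and with so few calls a gene without one there is not shown to be unchanged.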
